A study of Mus musculus with 2 samples.

Results

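The diacylglycerol kinases of mouse mast cells are described here on 2 one-colour arrays. The 9 genes Dgka, Dgkb, Dgkd, Dgke, Dgkg, Dgkh, Dgki, Dgkq and Dgkz were taken by their names in the array annotation, which gives them 11 of the 55659 probes. Of these genes, 8 were measured on both arrays (9 probes), out of 20394 measured genes. The family was picked with earlier results in view, because Dgki stood apart from its relatives, so the differences below describe the arrays and test nothing. Both arrays carried total RNA of mast cells grown from C57BL/6 bone marrow, for 2 weeks in interleukin 3 (10 ng/mL) and then 2 weeks in interleukin 3 plus stem cell factor (10 ng/mL). The cells had received 200 pmol of either a control siRNA or an siRNA that targets GATA1. This transcription factor binds DNA with zinc fingers and acts in mast cells, erythroid cells, megakaryocytes and eosinophils. For each siRNA, 2 samples from different animals were pooled and hybridised to 1 array, so no difference has a replicate check or a p-value, and the number of arrays limits every value. The age and sex of the animals, the siRNA sequences and the time between transfection and harvest are not given in the sources used here. Gata1 itself, the targeted gene, had signals of 16415 with the control siRNA and 3930 with the GATA1 siRNA, a difference of -2.23 on the log2 scale after scaling, in the direction of the labels.

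Diacylglycerol kinases add a phosphate to diacylglycerol, a lipid messenger that phospholipase C releases at the plasma membrane, and so turn it into phosphatidic acid. This ends the recruitment of protein kinase C and of the Ras activators of the RasGRP family, which bind diacylglycerol, and it supplies phosphatidic acid, a messenger of its own. In mast cells the pathway runs below the IgE receptor and Kit. The isozymes are grouped by their regulatory domains: type I (Dgka, Dgkb, Dgkg) carries calcium-binding EF hands, type II (Dgkd, Dgkh, Dgkk) a pleckstrin homology domain, type III (Dgke) the fewest regulatory domains and a preference for arachidonoyl diacylglycerol, type IV (Dgkz, Dgki) ankyrin repeats, and type V (Dgkq) a further cysteine-rich domain.

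The probes on which the differences rest are shown first, since most members are read by a single 60-base probe. Of Dgki, the probe at the higher coordinate is given whole and the other by its first 30 bases, and Dgkg is given whole and the Ensembl probe of Dgkb by its first 30 bases. All are as printed in the array files, 5′ to 3′.
Dgki, second probe: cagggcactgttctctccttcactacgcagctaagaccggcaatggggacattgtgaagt
Dgki, first probe: ctgtacctcacgattctactgtaaccaccc
Dgkg: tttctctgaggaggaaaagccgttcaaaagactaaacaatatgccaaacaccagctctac
Dgkb, Ensembl probe: ctaactcagttactatggatggacaaggtt
The first Dgki probe lies on the minus strand at chr6:36796955-36797014 and the second at chr6:36812371-36812430 (mm9, as the array annotation gives it), 15416 bp apart, and both are assigned to the same Dgki mRNA. The Dgkg probe lies at chr16:22469297-22469356 on the minus strand and the Dgkb Ensembl probe at chr12:38900396-38900455 on the plus strand. The exon that each probe sits in is not given in the sources used here.

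Among the 8 members measured on both arrays, Dgki had the lowest difference, and both of its probes gave it. Dgkb, which has no measured difference, is described below with its type. The first Dgki probe had a signal of 948 scanner units with the control siRNA and 550 with the GATA1 siRNA. The second had 244 and 145. The GATA1 siRNA array was the lower at each probe. With signals expressed relative to the 75th percentile of the array (303.2 and 340.0), the first probe stood at 3.13 with the control siRNA and 1.62 with the GATA1 siRNA, and the second at 0.803 and 0.426. On the log2 scale, GATA1 siRNA minus control siRNA, the differences were -0.95 and -0.92, with an error of the scanner software of 0.20 and 0.21. The 2 probes differed by 0.04 from each other. Their mean, the value used for the gene, was -0.93 with a scanner error of 0.15, or 1.91-fold lower. Of all measured genes, 0.716% lay at or below this value.

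Among the other 7 measured isozymes, differences ranged from 0.01 to 0.70, and all 7 were above 0 (Dgkd not under every scaling), as were 52.7% of all measured genes. The median of the family was 0.08 over 8 genes, against 0.01 over all measured genes. By the rule of size used in place of a test (2-fold), 0 members were lower and 0 were higher, where 0.603% of measured genes were lower and 0.294% higher. Over all genes the split between the directions moved with the scaling: 123 were lower and 60 higher (32.8% higher), but 106 and 79 (42.7% higher) after a loess and 103 and 77 (42.8% higher) with the authors' deposited table. At 1.5-fold, 1 member was lower (Dgki; background 2.76%) and 1 was higher (Dgkg; background 1.83%). At 3-fold there were 0 members in either direction (background 0.167% lower and 0.0588% higher). These shares are printed for scale only, since the members were chosen on this comparison.

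**Figure D1:**
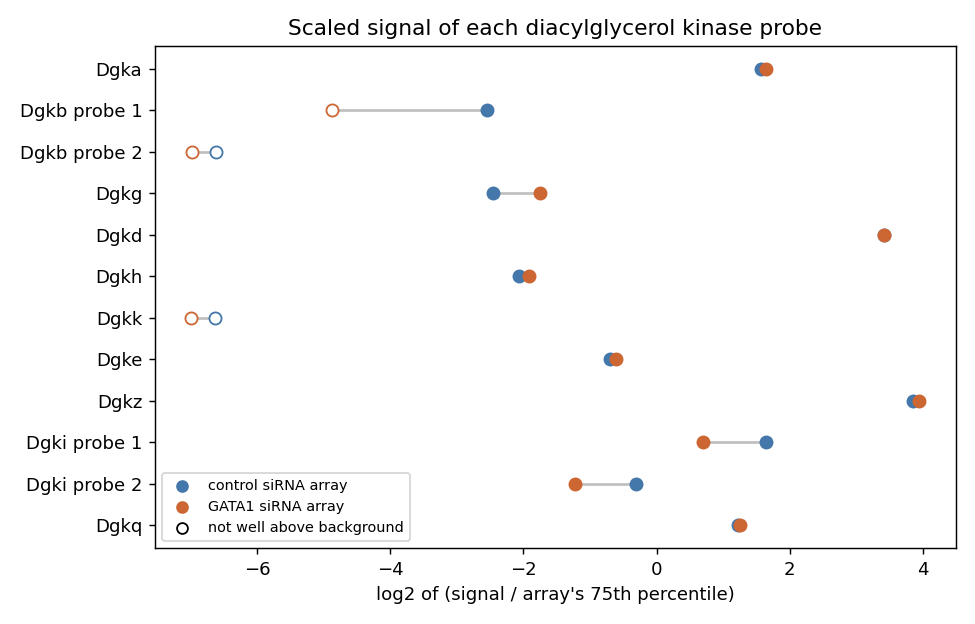
Scaled signal of each probe with the control siRNA and the GATA1 siRNA, as log2 of the signal over the array's 75th percentile, with isozymes ordered by type and open circles for values not well above background; levels of different probes are not comparable with each other. Dgkb probe 1 is its Ensembl probe. The 2 arrays nearly coincide for the 6 measured probes outside Dgki and Dgkg. Both Dgki probes are lower with the GATA1 siRNA and Dgkg is higher. The widest gap is at Dgkb probe 1, lower with the GATA1 siRNA, where it is not well above background.

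Of type I, Dgka is the isozyme known for restraining Ras activation in T cells. Its signal was 896 with the control siRNA and 1062 with the GATA1 siRNA, a difference of 0.08 after scaling, which is below the scanner error of 0.20. Dgkg had signals of 55.2 and 101, a difference of 0.70 with a scanner error of 0.22, or 1.63-fold higher with the GATA1 siRNA. It was thus the only member whose difference lay on the upper side by more than its own error, and it rests on 1 dim probe. With another background correction (normexp, which added 50 scanner units to every spot) Dgkg stood at 0.31, within 1.5-fold.

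Dgkb has 2 probes that did not give a difference. Its RefSeq probe (chr12:39359938-39359997, plus strand) was not well above background on either array, with signals of 3.1 and 2.7. The Ensembl probe shown above had a signal of 51.8 with the control siRNA and 11.6, not well above background, with the GATA1 siRNA. Set at the lowest signal that the software calls well above background on that array (13.3), this probe was 4.37-fold lower with the GATA1 siRNA. That value is not a strict bound, since another probe with a signal of 13.4 on that array was not called well above background. Of the 18 spots nearest to the Dgkb Ensembl probe on the array surface, 4 also differed 4-fold or more, and its 11 measured neighbours had a median difference of -0.31. The part of this local pattern in the Dgkb value was not tested. When dim probes were counted as well, Dgkb was the 1 member past 2-fold.

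Of type II, Dgkd had signals of 3231 and 3642, a difference of 0.01. Its sign depends on the scaling, with values from -0.05 to 0.07 over the alternatives. Dgkh had signals of 72.1 and 89.8, a difference of 0.15 with a scanner error of 0.22. The third type II gene, Dgkk, is on the array outside the 9 members and was not well above background on either array, with signals of 3.1 and 2.7. Dgke, the type III isozyme, had signals of 186 and 222, a difference of 0.09. Dgkq, the type V isozyme, had 711 and 814, a difference of 0.03. None of these 4 measured genes differed by more than its scanner error.

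**Figure D2:**
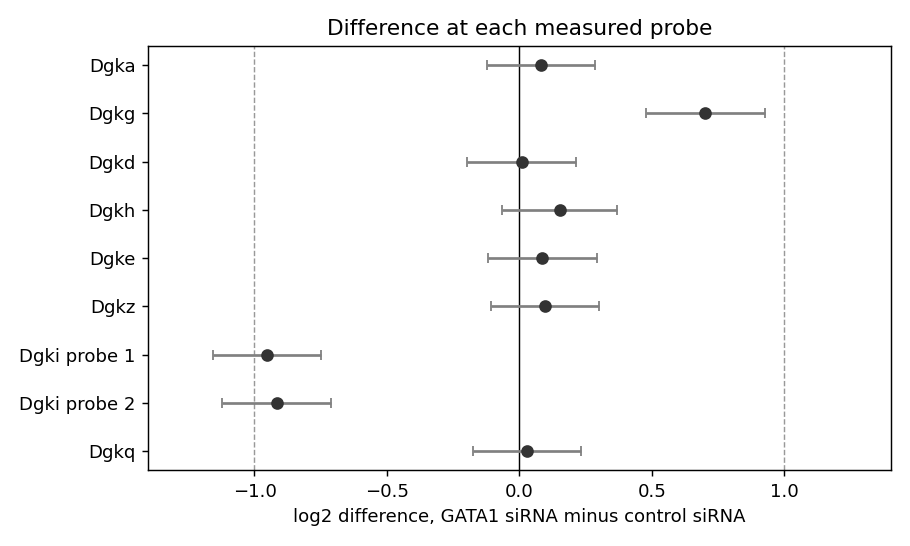
Log2 difference, GATA1 siRNA minus control siRNA, at each of the 9 measured probes, with bars for 1 scanner-software error and dashed lines at 2-fold. Both Dgki probes sit near -0.9, Dgkg at 0.70, and the other 6 probes between 0.01 and 0.15 with bars that cross 0.

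Type IV holds the closest relative of Dgki. Dgkz, a brake on diacylglycerol signalling in lymphocytes, had signals of 4363 with the control siRNA and 5231 with the GATA1 siRNA. Its difference was 0.10 with a scanner error of 0.20. The difference of Dgki was below that of Dgkz by 1.03 on the log2 scale, with a combined scanner error of 0.25, so that the ratio of Dgki to Dgkz signal was 2.04-fold lower on the GATA1 siRNA array. Against the other isozymes the same distance was -0.94 for Dgkd, -0.96 for Dgkq, -1.01 for Dgka, -1.02 for Dgke, -1.09 for Dgkh and -1.64 for Dgkg. These distances restate the contrast on which the family was chosen, so they are a description of this pair of arrays, with no spread between cultures to set them against.

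The scanner error is the software's model of spot and background noise, set mainly by a fixed share of the signal. Repeated spots give a second measure of precision: over the 25 probes printed 10 times that were closest in signal to each member probe, the median SD of the log2 difference between the arrays ran from 0.04 to 0.18. It was 0.06 at the level of the first Dgki probe, 0.11 at the second and 0.18 at Dgkg. The differences at both Dgki probes and at Dgkg exceeded these SDs. So did the smaller differences of Dgkz (0.10 against 0.04) and Dgka (0.08 against 0.05). Neither measure covers the cells, the animals or the transfection. Around the Dgki probes on the array surface, 9 measured spots near the first had a median difference of 0.09 and 7 near the second a median of 0.10. Of the 18 spots nearest to the second probe, 1 differed 4-fold or more, and near the first 0 did. The part of local array effects in the Dgki values was not tested.

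**Figure D3:**
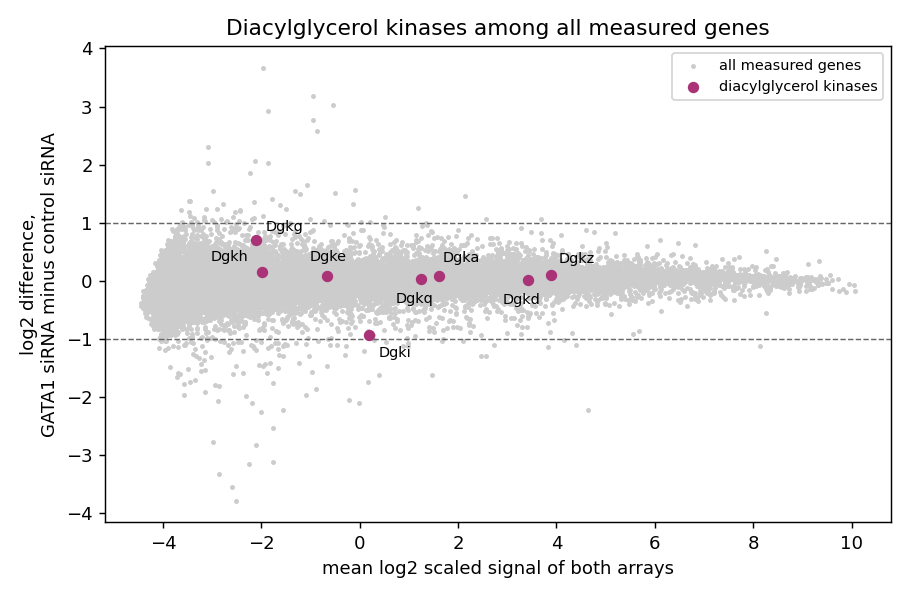
Log2 difference against mean log2 scaled signal for all 20394 measured genes (grey) and the 8 measured diacylglycerol kinases (named), with dashed lines at 2-fold. Dgki lies below the main cloud just inside 2-fold, Dgkg lies near its upper edge among dim genes, and the other 6 lie within it.

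The low values at Dgki continued in probes beside it. All 7 noncoding probes on its own strand, in a stretch of 1187 bp that ends 6558 bp from the first Dgki probe (chr6:36789211-36790397, mm9), were lower with the GATA1 siRNA, with differences from -1.14 to -0.96. Their signals were 273 to 2621 with the control siRNA and 139 to 1434 with the GATA1 siRNA. These 7 are assigned to 2 noncoding intervals, one inside the other, so they are not independent of each other, and the transcript ends of Dgki are not given in mm9 in the sources used here. On the opposite strand, 3 noncoding probes lie in the same stretch and 2 lie 781 and 855 bp outside it, and these 5 were dim: 1 was measured on both arrays (19.5 and 20.9, a difference of -0.07), 2 cleared background with the control siRNA only (17.1 against 2.9 and 21.7 against 13.4), and 2 on neither. Farther away, Creb3l2, which encodes a membrane-bound transcription factor, had signals of 988 and 788, a difference of -0.49, at 484253 bp from the first Dgki probe, and the gene model LOC638517 had -0.42 at 508688 bp from it. Chrm2 and Ptn, the named genes on the other side, did not clear background on either array.

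No such stretch was seen among the probes measured within 100 kb of the other members, but some windows held few probes. Measured probes numbered 16 for Dgka, 13 for Dgkh, 8 for Dgkq, 5 each for Dgke and Dgkz, 3 for Dgkd, 1 for Dgkg and 0 for Dgkb. Across 7 of the other members 51 neighbouring probes were measured, with differences from -0.45 to 0.34, and 0 lay past 1.5-fold in either direction. The window around Dgki was larger (500 kb), and the number of probes per window follows the array design.

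**Figure D4:**
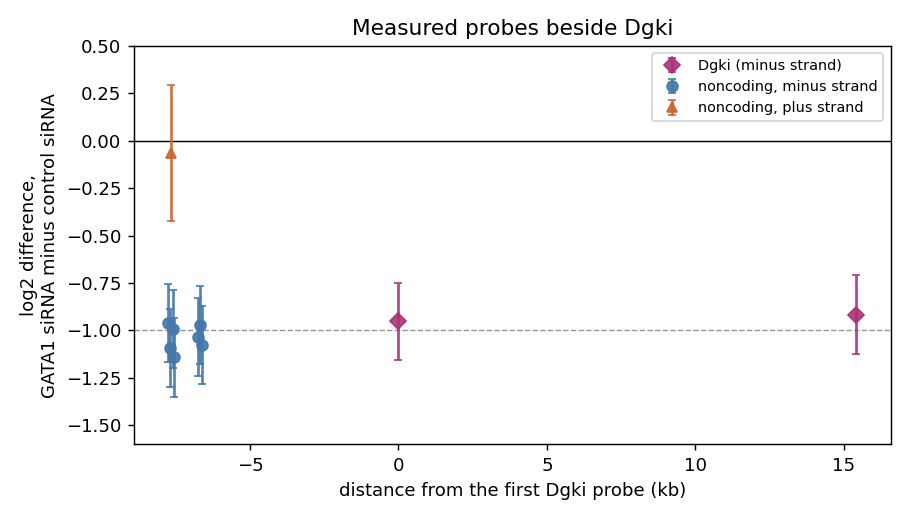
Log2 difference of measured probes by distance in kb from the first Dgki probe, with bars for 1 scanner-software error, for Dgki and for noncoding probes of each strand. The 7 minus-strand noncoding probes (-1.14 to -0.96) and the 2 Dgki probes lie together, and the single plus-strand probe lies at -0.07.

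Promoter sequences from RefSeq (GRCm38.p6; 250 bases before to 50 after a start site) were matched for all 9 members, with 15 windows in all, because GATA1 binds a short motif. The searched motif was AGATAA, its form with a final G (AGATAG), and the same pair beginning with T (TGATAA, and with a final G also TGATAG), on either strand, with overlapping matches counted. It occurs in 29.8% of the 32851 windows in the table and in 4 of the 15 of this family, which belong to Dgka, Dgkb, Dgke and Dgkh. The single Dgki window (chr6:37299977-37300226 for the bases before the start site, minus strand) holds none, and neither does that of Dgkg. Bases before the start site are shown with matches in capitals. They are those of Dgki, the lowest of the members measured on both arrays, and of Dgkb, which has no measured difference (chr12:37879924-37880173, plus strand).
Dgki: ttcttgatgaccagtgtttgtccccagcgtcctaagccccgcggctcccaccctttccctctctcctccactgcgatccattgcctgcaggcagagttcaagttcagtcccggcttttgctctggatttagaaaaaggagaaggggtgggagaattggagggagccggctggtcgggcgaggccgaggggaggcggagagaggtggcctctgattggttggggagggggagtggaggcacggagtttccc
Dgkb: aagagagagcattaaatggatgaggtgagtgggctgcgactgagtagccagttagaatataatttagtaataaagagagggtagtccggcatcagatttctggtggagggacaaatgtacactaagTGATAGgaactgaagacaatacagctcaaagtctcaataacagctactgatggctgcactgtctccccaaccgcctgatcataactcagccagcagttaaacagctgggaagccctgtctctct
The members with a match were thus Dgkb, which has no measured difference, and 3 members with differences of 0.08 (Dgka), 0.09 (Dgke) and 0.15 (Dgkh). A match describes letters in this window and is not a binding site, and windows of 300 bases leave out distant elements.

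The genes that make, read and consume diacylglycerol were described as 4 lists with 61 genes, of which 47 were measured. At 2-fold 0 of the 47 were lower and 0 higher (0.603% and 0.294% of all measured genes). At 1.5-fold 3 were lower, or 6.38% against 2.76% of all measured genes, and 1 was higher, or 2.13% against 1.83%. The median was 0.05, against 0.01 over all measured genes. Among phospholipases C, which release diacylglycerol, 8 of 13 were measured, with a median of -0.06. Plcg2, an isoform known for IgE receptor signalling, had mean signals of 7476 and 10007 (0.26), and Plcb2, which G proteins activate, had 137 and 207 (0.43). Plcd4 differed by -0.08 at the 1 of its 4 probes that was measured, with signals of 60067 and 63632. When dim probes were counted as well, Plcd4 stood at 0.09. Plcd1 was 1.72-fold lower (-0.78) at 1 dim probe with signals of 27.8 and 18.1.

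Among proteins that bind diacylglycerol, 14 of 19 were measured, with a median of 0.07. Prkcb and Prkca, conventional protein kinase C isoforms, differed by -0.07 and 0.09. Prkce, a calcium-independent isoform, had signals of 73.4 and 46.8 and was 1.76-fold lower (-0.82). Unc13b, a vesicle priming protein, stood at -0.33. Of the enzymes of diacylglycerol and phosphatidic acid turnover, 20 of 24 were measured, with a median of 0.12. The phosphatases Lpin2 (0.40) and Plpp2 (0.40) turn phosphatidic acid back into diacylglycerol, Pnpla2 (0.22) releases diacylglycerol from triglyceride, and Sgms1 (-0.17) forms it beside sphingomyelin. Mogat2, which makes diacylglycerol from monoacylglycerol, was 1.59-fold higher (0.67) at 1 dim probe with signals of 55.5 and 99.0. Of the 5 other lipid kinases with a related catalytic domain all were measured, with a median of 0.01. Cerk, the ceramide kinase, stood at 0.05 and Sphk2 at 0.08. Sphk1, a sphingosine kinase activated below the IgE receptor, was 1.59-fold lower (-0.67). However, its 2 probes gave -0.95 and -0.39, the latter at a spot whose neighbours differ 4-fold. With normexp none of Plcd1 (-0.29), Prkce (-0.42), Mogat2 (0.32) and Sphk1 (-0.32) lay past 1.5-fold.

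**Figure D5:**
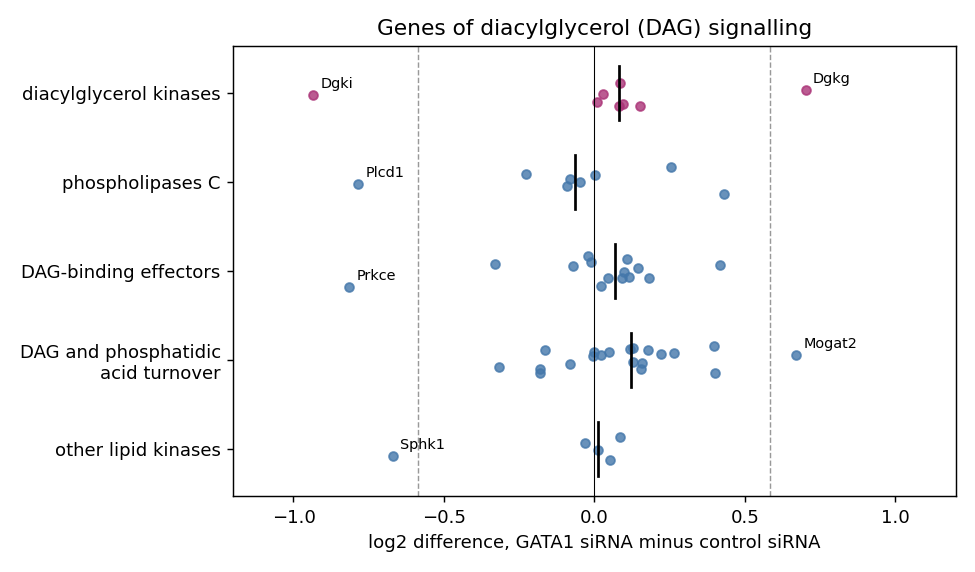
Log2 difference of each measured gene in the kinase family and in 4 lists of diacylglycerol signalling, with a black line at each median and dashed lines at 1.5-fold; genes past 1.5-fold are named. Medians lie between -0.06 and 0.12, and the genes past 1.5-fold are single members of each list besides Dgki and Dgkg.

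The labelled cell type was checked against marker genes. All 12 mast cell markers were measured, with a median of -0.09 and a summed scaled level of 2827 with the control siRNA and 2595 with the GATA1 siRNA. Neutrophil markers (12 of 13 measured) had a median of 0.50 and summed levels of 360 and 364. Csf3r, the receptor for granulocyte colony-stimulating factor, made up most of that sum (265 and 224, a difference of -0.24). Its 1 probe lies at a spot where 2 or more of the 18 nearest spots differed 4-fold. The other 11 neutrophil markers were all above 0, with summed levels of 95.3 and 140.4. Macrophage markers (9 of 12) had a median of 0.28 and summed levels of 13.1 and 22.1. Eosinophil markers (6 of 6) had a median of -0.53 and summed levels of 25.6 and 18.1, megakaryocyte markers (6 of 7) -0.31 with 50.4 and 41.0, and erythroid markers (4 of 7) 0.04 with 4.71 and 5.90, or 2.91 and 2.29 without the haemoglobin gene Hba-a2. T cell markers (5 of 9) had a median of -0.14 with summed levels of 6.23 and 6.09, with Cd3d, Cd3g, Cd8a and Cd2 not above background, and B cell markers (3 of 6) had -0.07 with 2.44 and 2.30, with Ms4a1 and Pax5 among those not above background. The part of these cell types in the values of Dgki and Dgkg was not tested. In RNA of a whole culture, fewer cells of a type and less RNA per cell cannot be told apart.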

How the data were processed

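Each siRNA group was 1 Agilent one-colour array, with groups taken from the transfection label. Spot values are intensity in scanner units, as written by the software Feature Extraction (Agilent, 10.7.3.1), per the file headers, with spatial and multiplicative detrending and no scaling between arrays. Well-above-background, saturation and outlier flags come from the same deposited files. A normalized intensity table, deposited for the series, equals each array's processed signal over its median (column medians 1 and 1), found from the values; how it was made is not stated.

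Control spots and outlier spots (117 and 133) were left out, repeated spots were averaged as log2, and each array was divided by its 75th percentile (303.2 and 340.0). Of 55659 probes, 52.7% and 55.2% were well above background, and 0 spots were saturated. A probe was measured if well above background on both arrays (28730 probes), and a gene is the mean of its measured probes. Names came from RefSeq for GRCm38.p6 (27225 probes by accession, 4145 by symbol), and 24289 kept the array's name. Where 2 or more of a spot's 18 nearest spots differed 4-fold, it was marked (1503 spots). The software's error comes from its signal errors. The fold rule, 2-fold, replaced a test. Named genes are all members, Dgkk, Gata1, the probes near Dgki, and in each pathway list the 3 largest differences and 2 highest levels; items withheld for evaluation are not reported here. The members and lists were chosen with earlier results of these data known. Scripts (Python 3.11.15, limma 3.58.1) were tested on simulated data.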

Additional observations from a re-analysis of the deposited data

How the results depend on the processing

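Over 12 alternatives to background correction, scaling, filters and probe averaging, Dgki stayed below 0, from -0.95 to -0.78, the latter with normexp, the one alternative that moved it by more than its scanner error. The family median ranged from 0.04 to 0.14 and Gata1 from -2.28 to -2.17. The number of members past 2-fold stayed at 0 lower and 0 higher except without a filter on dim probes (1 lower, Dgkb), and at 1.5-fold there were 1 lower and 1 higher. Counts over all genes, 123 lower and 60 higher, became 31 and 17 with normexp, 1124 and 725 without the filter, 61 and 20 with a stricter one, 562 and 374 at 1.5-fold, and 34 and 12 at 3-fold. With marked spots left out 38 were higher. For the other genes and lists named, 321 of 331 values moved by less than their spread (the scanner error for a gene), 10 moved by more and 0 reversed. The cause was not tested, apart from the filters and folds, which change how many genes can pass. Normexp added an offset of 50 scanner units to every spot, which by arithmetic lessens fold differences between dim signals. It also started from the mean spot signal and the local background in place of the processed signal. The share of each in the moved values was not tested. The dim genes Dgkg, Plcd1, Prkce and Mogat2 have no value under the stricter filter, and normexp brought each of them closer to 0. No paired analysis was possible because each group is 1 array.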
